A study of Mus musculus with 6 samples.

Results

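Matrix metalloproteases (MMPs), ADAMs, ADAMTSs and tissue inhibitors of metalloproteases (TIMPs) were described in single-cell RNA sequencing of circulating tumor cells and tumor cells from 3 mice. The members were the rows of the expression table whose gene symbol begins with Mmp, Adam, Adamts or Timp followed by a digit. They came to 80 rows of 45038, with 79 different symbols, since Mmp27 is listed on 2 rows. By family they were 24 MMP, 33 ADAM, 19 ADAMTS and 4 TIMP rows. Each circulating tumor cell (CTC) is a tumor cell taken from blood, with 1 such cell from each of mice 1157, 1168 and PDGF1, and each was compared with 1 tumor cell of the same mouse. The labels give no strain, age, genotype or treatment, and the titles of the tumor cells carry the letters GBM without explaining them. Only the CTCs are called single cells in the source labels, while the design text of the series counts 6 single cells. All values of a gene below are in the mouse order 1157, 1168 and PDGF1.

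MMPs and ADAMTSs are secreted or membrane-bound zinc proteases that cut the proteins of the extracellular matrix, and most are made with a propeptide that keeps them inactive until it is removed. ADAMs are membrane proteins, and those with protease activity release the outer part of other surface proteins, such as growth factor precursors, Notch receptors and adhesion molecules. TIMPs are small secreted proteins that block these enzymes. In brain tumors this system is known for its part in the passage of cells through tissue, since brain matrix is rich in hyaluronan-binding proteoglycans that ADAMTSs cut.

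The 6 cells differed in what they held before any group was compared. Between 1486 and 11239 of 44804 genes were at 1 FPKM or more per cell, where FPKM is fragments per kilobase of transcript, scaled to the mapped fragments of the library. Mouse 1168 had 9702 such genes in its CTC and 11239 in its tumor cell, while the other 4 cells had at most 4078. Named protein-coding genes took 85.0% of the FPKM of the 1168 CTC and 71.8% of its tumor cell, and 11.9% to 51.8% in the other 4 cells. Low values fell on steps: in receptor genes of about 1 kb, 80.0% to 100% of the lowest values per cell lay within 0.15 of a whole multiple of a single step. The step was set from these same receptor genes, with 15 to 46 such values per cell, so the share is a description and not a check. The step, the worth of about 1 fragment per kb of transcript, was 0.0469, 0.0403 and 0.0290 FPKM in CTCs, against 0.111, 0.0223 and 0.0312 FPKM in tumor cells. At 1 FPKM a gene thus had about 9.02 to 44.8 fragments per kb. These are copies made by repeated amplification and not independent molecules, so no counting interval is given. Background was read from receptor genes of smell and pheromone sensing, which are known from the nose. Their 99th percentile was 0.770, 0.149 and 2.70 FPKM in CTCs, against 1.95, 1.27 and 7.10 FPKM in tumor cells.

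Marker genes set the cells apart as well. Of 11 genes of oligodendrocyte progenitors and glioma, 4, 11 and 0 were at 1 FPKM or more in CTCs, against 4, 10 and 1 in tumor cells. Of 16 microglia and macrophage genes, 3, 6 and 1 were at 1 FPKM or more in CTCs, against 5, 13 and 3 in tumor cells. The summed FPKM of those 16 genes was 14.8, 228 and 2.78 in CTCs, against 14.6, 2399 and 25.8 in tumor cells. Pericyte and fibroblast genes summed to 1.30, 2.81 and 0.317 FPKM in CTCs, against 75.4, 84.0 and 1.41 in tumor cells. The sums of neutrophil genes were at most 1.36 FPKM in CTCs and 6.11 in tumor cells, and of endothelial genes at most 1.43 and 9.86. Lymphocyte and pan-leukocyte genes reached 5.16 FPKM in CTCs and 255 in tumor cells, astrocyte genes 50.3 and 12.9, platelet genes 72.2 and 12.8, and erythroid genes 0.182 and 0.181. In the 1168 CTC Slc1a3 alone gave 49.3 of the astrocyte sum, with Gfap at 0, and Itga2b gave 68.0 of the platelet sum, with Ppbp and Gp9 at 0 and Pf4 at 0.0822.

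Regulatory sequence is shown first for one block of members, because 4 MMP genes of the block reached 1 FPKM or more, as their highest value, in the same cell. The block of 10 MMP genes, Mmp13, Mmp12, Mmp1b, Mmp3, Mmp1a, Mmp10, Mmp8, Mmp27, Mmp20 and Mmp7 in that order, lies within 427 kb on mouse chromosome 9, from 7272514 to 7699585 (GRCm38, GENCODE M21). The promoters below are the 250 bases before the start of Mmp13, Mmp12, Mmp3 and Mmp10, whose values peaked together, and of Mmp8, a neighbour that stayed near 0. They are from RefSeq (GRCm38.p6), on the plus strand, read 5′ to 3′, and capitals mark TGAGTCA or its reverse complement TGACTCA, the sequence bound by AP-1, a factor of Fos and Jun proteins. Of the 2 promoters listed for Mmp12, the one that holds a match is shown.
Mmp13 chr9:7272264-7272513: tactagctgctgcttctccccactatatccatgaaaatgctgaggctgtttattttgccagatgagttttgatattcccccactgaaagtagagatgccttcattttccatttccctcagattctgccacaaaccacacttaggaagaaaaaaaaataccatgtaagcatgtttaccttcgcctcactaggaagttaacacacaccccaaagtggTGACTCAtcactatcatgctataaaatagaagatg
Mmp12 chr9:7347124-7347373: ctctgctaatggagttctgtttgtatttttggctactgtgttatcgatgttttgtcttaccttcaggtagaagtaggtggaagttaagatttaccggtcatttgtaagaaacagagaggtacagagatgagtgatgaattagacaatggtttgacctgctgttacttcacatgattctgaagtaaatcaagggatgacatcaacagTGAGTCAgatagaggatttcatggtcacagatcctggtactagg
Mmp3 chr9:7445572-7445821: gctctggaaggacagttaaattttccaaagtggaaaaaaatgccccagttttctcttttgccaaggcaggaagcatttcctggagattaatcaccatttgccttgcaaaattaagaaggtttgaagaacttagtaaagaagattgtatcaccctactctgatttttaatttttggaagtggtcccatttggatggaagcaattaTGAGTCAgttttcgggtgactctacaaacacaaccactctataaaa
Mmp10 chr9:7502092-7502341: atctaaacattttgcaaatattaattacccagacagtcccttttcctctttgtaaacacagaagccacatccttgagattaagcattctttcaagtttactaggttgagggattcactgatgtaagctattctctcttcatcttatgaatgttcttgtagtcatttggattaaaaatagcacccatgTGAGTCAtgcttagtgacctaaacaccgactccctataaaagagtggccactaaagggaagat
Mmp8 chr9:7558179-7558428: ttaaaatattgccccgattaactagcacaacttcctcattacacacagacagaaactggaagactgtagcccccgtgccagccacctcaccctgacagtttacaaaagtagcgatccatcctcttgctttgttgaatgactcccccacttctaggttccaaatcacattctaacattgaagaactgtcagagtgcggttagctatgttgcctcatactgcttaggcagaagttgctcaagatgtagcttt

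In this window of 300 bases (250 before and 50 after the start), both strands of the letters TGAGTCA were searched. They were present in 7 of 12 promoters of the chromosome 9 block (58.3%), in 3 of the 42 other member promoters (7.14%) and in 1709 of all 32851 promoters (5.20%). The match began 35 bases before the start in Mmp13, 44 in Mmp12, 46 in Mmp3 and 63 in Mmp10. By gene, 7 of 10 held a match, among them Mmp1b, Mmp1a and Mmp7, which stayed under 1 FPKM in all 6 cells. Mmp27, on 1 of its 2 rows, was also highest in the tumor cell of mouse 1168, at 0.156 FPKM, and its promoter held no match. The letters are a description of the window and not a measured binding site, and the motif was chosen after the values were seen. Promoters were listed for 49 of the 79 symbols.

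Mmp12, the macrophage elastase, was the member of highest FPKM anywhere in the 6 cells. It was at 1.88, 0.0994 and 0.0669 FPKM in CTCs, against 0.348, 98.5 and 0.319 FPKM in tumor cells. The tumor cell of mouse 1168 alone was high, at percentile 97.0 of 18785 named protein-coding genes of that cell, and the CTC of mouse 1157 was above its own tumor cell. Mmp3, the stromelysin that also activates other MMPs, was at 0.137, 0.0197 and 0.0144 FPKM in CTCs, against 0, 9.44 and 0 in tumor cells. Mmp13, a collagenase, was at 1.52, 0.0254 and 0.140 FPKM in CTCs, against 0, 3.15 and 0 in tumor cells, so mice 1157 and PDGF1 went the opposite way to mouse 1168. Mmp10, a second stromelysin, was listed at 0 in all 3 CTCs, against 0.171, 1.79 and 0.0635 FPKM in tumor cells. Its groups did not overlap, but 0.171 and 0.0635 FPKM are about 1.54 and 2.03 fragments per kb. Of the other genes of the block, Mmp20, the enamel protease, reached 1.06 FPKM in the CTC of mouse PDGF1, and no other passed 1 FPKM. The CTC of mouse 1168 had Lyz2 at 174 FPKM and Ctss at 19.4, against 1202 and 672 in its tumor cell, which was the cell high in these MMPs; both are macrophage genes. C1qa, a complement gene of microglia, was at 0 in that CTC and at 13.0 in that tumor cell, and C1qb at 2.56 and 8.85. Adgre1 of the same marker list went the other way, at 1.55 FPKM in that CTC and 0.428 in that tumor cell. Of the 16 microglia and macrophage genes, 14 were at 1 FPKM or more in either cell of mouse 1168. Among those 14, 12 were at least 1 lower in the CTC on log2(FPKM + 1) and 0 at least 1 higher (background 24.9% and 22.7% of genes). The part of such RNA in the MMP values was not tested.

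**Figure D1:**
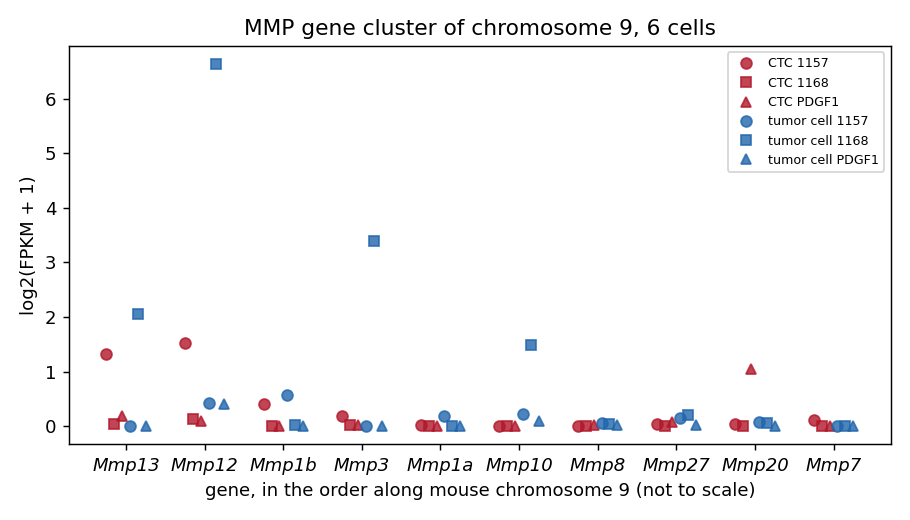
log2(FPKM + 1) of the 10 MMP genes of the chromosome 9 block in gene order, with 1 point per cell (red CTC, blue tumor cell, shape for the mouse). The tumor cell of mouse 1168 stands above the other cells in Mmp13, Mmp12, Mmp3 and Mmp10, and the CTC of mouse 1157 is next in Mmp13 and Mmp12.

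Other secreted MMPs were low in most cells. Mmp2, a gelatinase that cuts basement membrane collagen, was at 0.833, 0.0333 and 0.0163 FPKM in CTCs, against 0.0302, 1.14 and 0 in tumor cells. Mmp9, the other gelatinase, stayed under 1 FPKM in all 6 cells, with 0.237, 0.102 and 0 in CTCs, against 0.604, 0.418 and 0 in tumor cells. Both groups overlapped for the gelatinases. Mmp19 was at 0.215, 0.0580 and 0.0216 FPKM in CTCs, against 0.240, 11.6 and 0.0222 in tumor cells, high in the tumor cell of mouse 1168 alone. Mmp11, known from the stroma of tumors, was at 0.190, 0 and 0.158 FPKM in CTCs, against 0, 2.77 and 0 in tumor cells. Mmp7, matrilysin, reached 0.0848 FPKM at most. Mmp23 had a different pattern, at 0.899, 0.417 and 0 FPKM in CTCs, against 13.1, 0.0179 and 0 in tumor cells, where the tumor cell of mouse 1157 stood at percentile 99.5 of its protein-coding genes.

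The membrane-anchored MMPs split within mouse 1168. Mmp14, the transmembrane enzyme that activates the product of Mmp2, was at 0.381, 2.18 and 0.0193 FPKM in CTCs, against 0.619, 15.8 and 0 in tumor cells. Mmp15 was at 0.236, 27.3 and 0.0223 FPKM in CTCs, against 0.165, 6.67 and 0.0350 in tumor cells. Mmp16 was at 0.273, 16.5 and 2.17 FPKM in CTCs, against 0.183, 0.746 and 1.23 in tumor cells. So in mouse 1168 Mmp14 was lower and Mmp15 and Mmp16 were higher in the CTC, and Mmp16 was higher in the CTC of all 3 mice while the groups still overlapped. Mmp24, which is known from neurons, was at most 0.343 FPKM. Mmp17, held to the membrane by a lipid anchor, was at 0.152, 0.885 and 0.00372 FPKM in CTCs, against 0.274, 2.37 and 0 in tumor cells.

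**Figure D2:**
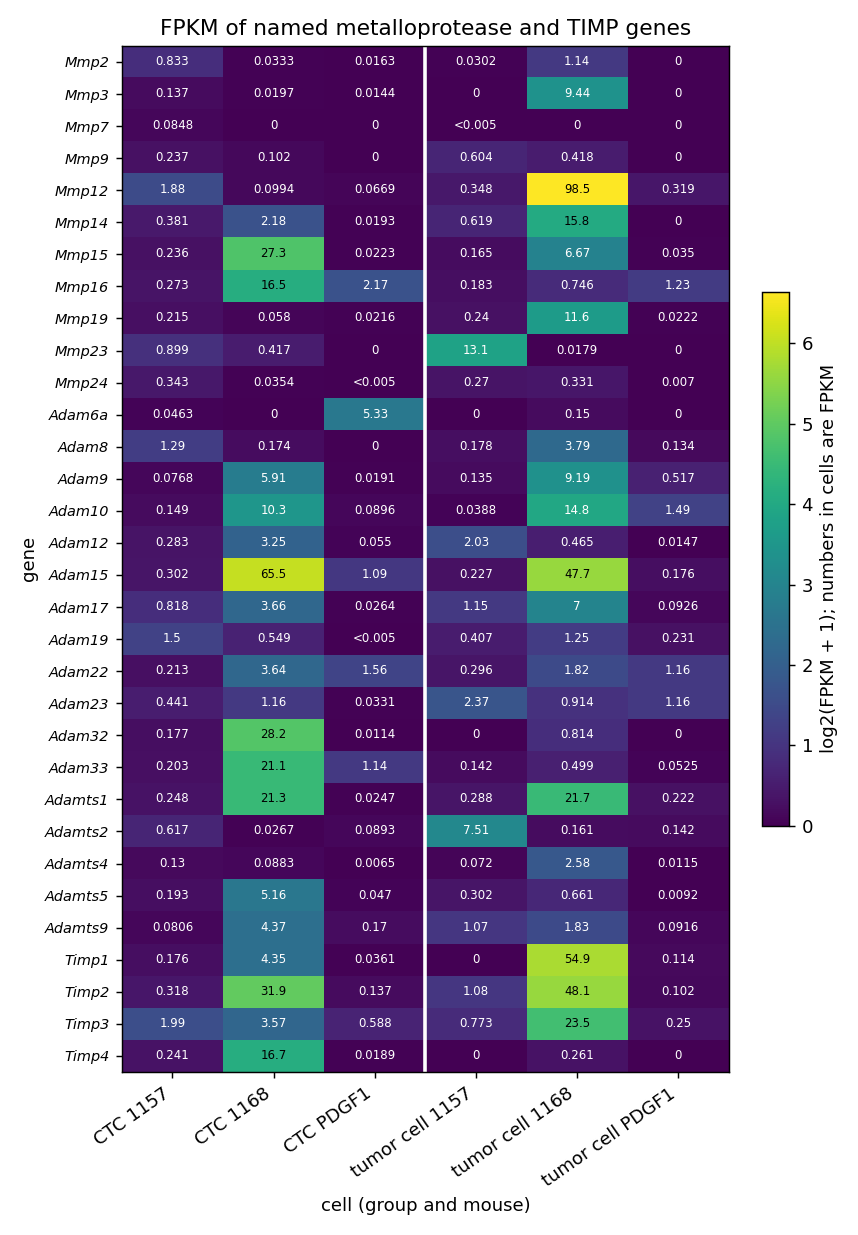
FPKM of the 32 members named by rule (rows) in 3 CTCs and 3 tumor cells (columns), with colour for log2(FPKM + 1) and the FPKM printed in each field. Most values of 5 or more lie in the columns of mouse 1168; the exceptions are Mmp23 and Adamts2 in the tumor cell of mouse 1157 and Adam6a in the CTC of mouse PDGF1.

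Among the inhibitors, Timp1 and Timp4 stood on opposite sides in mouse 1168. Timp1, the inducible inhibitor, was at 0.176, 4.35 and 0.0361 FPKM in CTCs, against 0, 54.9 and 0.114 in tumor cells. Timp4, known from brain and heart, was at 0.241, 16.7 and 0.0189 FPKM in CTCs, against 0, 0.261 and 0 in tumor cells. The CTC was above its tumor cell in all 3 mice for Timp4, but 0.241 and 0.0189 FPKM in mice 1157 and PDGF1 lay under the receptor percentile of those cells. Timp2, which also takes part in the activation of the Mmp2 product, was at 0.318, 31.9 and 0.137 FPKM in CTCs, against 1.08, 48.1 and 0.102 in tumor cells. Timp3, which binds to the matrix and blocks several ADAMs as well, was at 1.99, 3.57 and 0.588 FPKM in CTCs, against 0.773, 23.5 and 0.25 in tumor cells. Timp3 thus was lower in the CTC in mouse 1168 and higher in the CTC in mice 1157 and PDGF1. Summed, the 4 inhibitors had 2.73, 56.5 and 0.780 FPKM in CTCs, against 1.85, 127 and 0.466 in tumor cells. Timp1, Timp3 and Timp4 each lie inside a synapsin gene on the other strand. The library kit keeps strand, per the labels' protocols, but whether reads were counted by strand was not given in the sources used here. Timp2 shares its strand with the overlapping gene Cep295nl, so reads of that pair could be split or shared.

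ADAMs with protease activity in body cells had 9 members, of which 2, 6 and 2 were at 1 FPKM or more in CTCs, against 2, 6 and 2 in tumor cells. Adam15, a disintegrin that binds integrins, was the highest of the 9 in both cells of mouse 1168, and had 0.302, 65.5 and 1.09 FPKM in CTCs, against 0.227, 47.7 and 0.176 in tumor cells. Among named protein-coding genes it was at percentile 94.4 in both cells of that mouse. Adam10, the sheddase of Notch receptors and cadherins, was at 0.149, 10.3 and 0.0896 FPKM in CTCs, against 0.0388, 14.8 and 1.49 in tumor cells. Adam17, which frees tumor necrosis factor and ligands of the EGF receptor, was at 0.818, 3.66 and 0.0264 FPKM in CTCs, against 1.15, 7.0 and 0.0926 in tumor cells. For Adam10 and Adam17 the CTC of mouse 1168 was lower than its tumor cell by less than 1 on the log2(FPKM + 1) scale, and the groups overlapped. Adam9, a sheddase that acts on several surface proteins, was at 0.0768, 5.91 and 0.0191 FPKM in CTCs, against 0.135, 9.19 and 0.517 in tumor cells, lower in the CTC in 3 of 3 mice. Its values in mice 1157 and PDGF1 lay under the receptor percentile of their cell.

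Adam33, linked to airway smooth muscle, was at 0.203, 21.1 and 1.14 FPKM in CTCs, against 0.142, 0.499 and 0.0525 in tumor cells. Each CTC was above the tumor cell of its mouse, yet only the CTC of mouse 1168 lay above its receptor percentile. Adam12, a protease of muscle and placenta, was at 0.283, 3.25 and 0.0550 FPKM in CTCs, against 2.03, 0.465 and 0.0147 in tumor cells, higher in the CTC of mouse 1168 and lower in that of mouse 1157. Adam8, known from leukocytes, was at 1.29, 0.174 and 0 FPKM in CTCs, against 0.178, 3.79 and 0.134 in tumor cells. Adam19 was at 1.5, 0.549 and 0.00375 FPKM in CTCs, against 0.407, 1.25 and 0.231 in tumor cells. Adam8 and Adam19 were both higher in the CTC in mouse 1157 and lower in the other 2 mice. Adam28, of lymphocytes, was at 1.57 FPKM in mouse PDGF1's tumor cell and at most 0.282 elsewhere. That 1.57 lay under the receptor percentile of its cell.

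The 3 ADAMs Adam11, Adam22 and Adam23 of the brain have no protease activity and act as binding proteins at the surface of neurons. Adam22, a receptor of the secreted protein LGI1, was at 0.213, 3.64 and 1.56 FPKM in CTCs, against 0.296, 1.82 and 1.16 in tumor cells. Adam23 was at 0.441, 1.16 and 0.0331 FPKM in CTCs, against 2.37, 0.914 and 1.16 in tumor cells. Adam11 was at 0.432, 0.0427 and 0.00945 FPKM in CTCs, against 1.25, 0.181 and 0.0493 in tumor cells, lower in the CTC of every mouse. Each of these Adam11 values lay under the receptor percentile of its cell. In mice 1168 and PDGF1 all 4 values of Adam22 lay between 1.16 and 3.64 FPKM, but both of mouse PDGF1 were under that percentile.

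Most of the remaining ADAMs are known from testis and epididymis, and of 21 such members 17 stayed under 1 FPKM in all cells. The exceptions each peaked in 1 or 2 cells. Adam32 was at 0.177, 28.2 and 0.0114 FPKM in CTCs, against 0, 0.814 and 0 in tumor cells. It lies beside Adam9 on chromosome 8, on the same strand, with Adam5, Adam3 and Adam18 on its other side. In the CTC of mouse 1168 those 3 neighbours were listed at 0 and Adam9 at 5.91 FPKM. Adam6a reached 5.33 FPKM in mouse PDGF1's CTC, about 184 fragments per kb, and at most 0.15 in the other 5 cells. Adam3 was at 1.40 and 1.80 FPKM in the tumor cells of mice 1157 and 1168, and Adam29 at 1.67 in that of mouse PDGF1, a value under the receptor percentile of that cell. Adam6a and its copy Adam6b, and the clustered Adam26a and Adam26b, have near relatives among which reads could be split, so their single values are uncertain.

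ADAMTS genes of the proteoglycan-cleaving group were led by Adamts1, which cuts aggrecan and versican and was level in mouse 1168. It was at 0.248, 21.3 and 0.0247 FPKM in CTCs, against 0.288, 21.7 and 0.222 in tumor cells. Adamts5, the main aggrecan-cutting enzyme of mouse cartilage, was at 0.193, 5.16 and 0.0470 FPKM in CTCs, against 0.302, 0.661 and 0.00920 in tumor cells. Adamts4, which cuts the brain proteoglycan brevican, was at 0.130, 0.0883 and 0.00650 FPKM in CTCs, against 0.0720, 2.58 and 0.0115 in tumor cells. Adamts5 and Adamts4 therefore lay on opposite sides in mouse 1168, higher and lower in the CTC, and under 1 FPKM in the other 4 cells. Adamts9, which acts on versican, was at 0.0806, 4.37 and 0.170 FPKM in CTCs, against 1.07, 1.83 and 0.0916 in tumor cells. Adamts2, which trims procollagen, was at 0.617, 0.0267 and 0.0893 FPKM in CTCs, against 7.51, 0.161 and 0.142 in tumor cells. Col1a1, a procollagen gene named after its values were seen, was at 0.146 FPKM in mouse 1157's CTC and 74.3 in its tumor cell. It makes up most of the pericyte and fibroblast sum of 75.4 FPKM there, and was the only 1 of those 9 genes at 1 FPKM or more in that tumor cell. Col1a2 was at 0.469 FPKM in mouse 1157's CTC and 0.227 in its tumor cell, Col3a1 at 0.239 and 0.144, and Dcn at 0.0458 and 0.0543. The part of pericytes or fibroblasts in the Adamts2 value was not tested. Adamts13, Adamts14 and Adamts19 each passed 1 FPKM in 1 cell and reached at most 1.41 FPKM.

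The first comparison asked how many members each kind of cell held. At 1 FPKM or more there were 6, 20 and 6 members in CTCs, against 9, 25 and 6 in tumor cells. CTCs averaged 10.7 ± 8.08 members and tumor cells 13.3 ± 10.2 (SD, n = 3 each). The difference of -2.67 was smaller than these SDs (exact permutation test, two-sided, p = 0.7; 0.1 is the smallest p this design allows). Paired by mouse, the SD of the differences was 2.52 and the exact sign-flip test gave p = 0.5, where 0.25 is the smallest possible. With every cell rescaled to the same FPKM sum, CTCs averaged 23.7 members at 1 FPKM or more and tumor cells 37.3, a difference of -13.7 (p = 0.2, exact permutation test). The rescaled count was not made over all genes. Without rescaling, the members at 1 FPKM or more were 13.3% ± 10.1 of members in CTCs and 16.7% ± 12.8 in tumor cells. Beside these stood 10.5% ± 9.82 and 13.6% ± 9.98 of all 44804 genes (SD, n = 3 each). The direction turned when members were counted above the receptor percentile of each cell, with 9, 25 and 1 in CTCs, against 4, 23 and 0 in tumor cells, a mean difference of 2.67 (p = 0.7, exact permutation test). That percentile was higher in the tumor cell than in the CTC of every mouse. The count above it was not made over all genes, so the turn is not a result about the members. The direction also turned without the tumor cell of mouse 1168, at 3.17. Of the 80 rows, 39 were under 1 FPKM in every cell, 20 reached it in 1 cell, 12 in 2 cells and 9 in 3 or more. Only Adam20 was listed at 0 in all 6 cells.

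**Figure D3:**
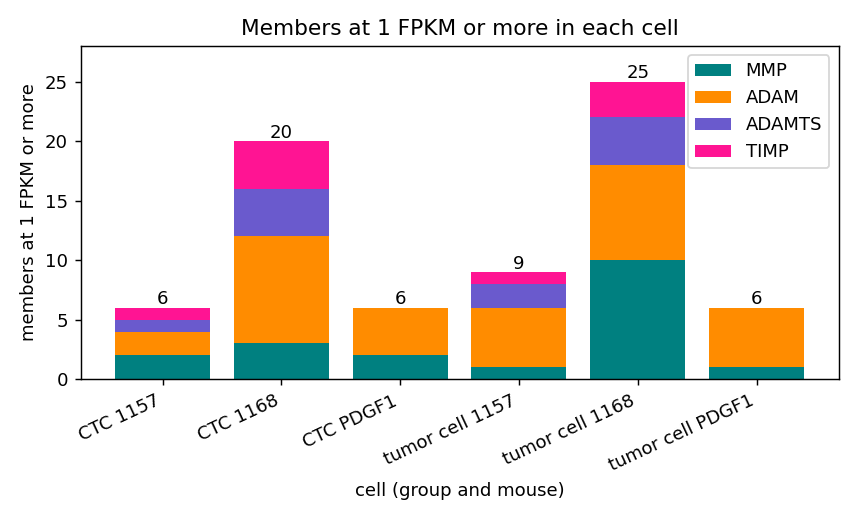
Number of members at 1 FPKM or more in each cell, stacked by family, with the total above each bar. Mouse 1168 holds 20 members in its CTC and 25 in its tumor cell, and the other 4 cells 6 to 9.

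The second comparison asked whether single members differed by group when all 3 mice were used. No member passed the test, and no gene of the table did: 4165 genes reached 1 FPKM in 3 cells or more and 0 were called (0.00%; limma on log2(FPKM + 1), Benjamini-Hochberg adjusted p under 0.05) and 7 had an unadjusted p under 0.05 (0.168%). The 9 members among them were Timp2, Timp3, Adam23, Adam15, Mmp16, Adamts9, Adam22, Adam17 and Adam10, and none had an unadjusted p under 0.05; the adjusted p was 0.99994 for each (limma). Mmp16 was at 1.31 (SE 1.31), higher in the CTC of 3 of 3 mice. Without the 1168 CTC its difference was 0.27, without mouse 1168 it was 0.31, and without the 1157 CTC it was 2.16. All 4 values of Mmp16 in mice 1157 and PDGF1 lay under the receptor percentile of their cell. Adam23 was at -0.71 (SE 0.80), lower in the CTC of 2 of 3 mice. The other 7 lay between -0.51 for Adam10 (SE 1.46) and 0.46 for Adam15 (SE 2.22), each smaller than its SE. Of the 9 differences 4 were positive and 5 negative, with a median of -0.37, beside 1962 positive and 2203 negative and a median of -0.06 over all genes tested. These counts describe the 9 only. The SEs given above and below are from the fit without the mouse. With the mouse as a replicate block limma called 1 gene (0.0240%), which was no member. In that paired fit 217 genes had an unadjusted p under 0.05. Its SE was 0.72 for Mmp16, 0.59 for Adam23, 0.76 for Adam10 and 0.94 for Adam15. The lowest unadjusted p of the 9 members there was 0.067, for Mmp16 (limma, mouse as block). None of the 9 had all 3 CTCs above or all 3 below the tumor cells, where 0.264% and 1.30% of the 4165 genes did. The median difference of all genes moved to -0.68 when every cell was rescaled to the same FPKM sum, which let 11998 genes into the test, and to -0.31 with a pseudocount of 0.1.

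**Figure D4:**
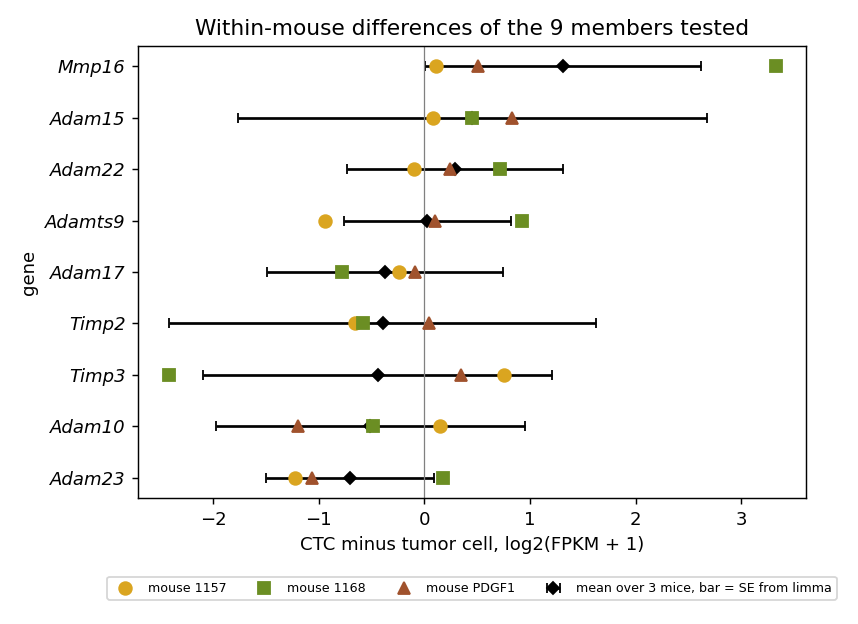
Difference of CTC minus tumor cell on the log2(FPKM + 1) scale for the 9 members tested, with 1 coloured point per mouse and a black diamond for the mean over 3 mice with its SE from limma. The SE is from the fit without the mouse as a block. Mmp16 and Adam15 have all 3 points above 0, Adam17 has all 3 below, and the other 6 have mice on both sides.

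Over all 80 rows, 0 had all 3 CTCs above all 3 tumor cells (background 0.346% of 44804 genes), and 2, Mmp10 and Adam29, had all 3 CTCs below (background 2.10%). Taken by mouse, 5 members were higher in the CTC of all 3 mice by any amount, namely Adam33, Adam15, Mmp16, Timp4 and Adam32, where the background was 2.54% of genes. Another 14 were lower in the CTC of all 3 mice (background 9.07%), among them Adam9, Adam17, Adamts1, Mmp19 and Mmp10. Some of these differences were tiny, such as -0.024 for Adamts1 in mouse 1168 and -0.00085 for Mmp19 in mouse PDGF1. Only 32679 of the 44804 genes were above 0 in any cell, and the rest could not be counted. Over those 32679 genes alone, each background of this paragraph would be higher. Adam33 and Timp4 differed by at least 3.81 in mouse 1168 on the log2(FPKM + 1) scale, while their values in mouse 1157 were under 0.25 FPKM.

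The third comparison set the 2 cells of mouse 1168 side by side, 1 library against 1, so it has no replicate check and no test. Of 33 members at 1 FPKM or more in either cell, 8 stood at least 1 higher in the CTC on the log2(FPKM + 1) scale (24.2%, background 22.7% of 12396 genes) and 13 stood at least 1 lower (39.4%, background 24.9%). The share higher thus lay near that of all genes. The median in mouse 1168 was -0.58 for the members, beside 0.04 for all genes. It was -0.65 beside -0.62 in mouse 1157, and 0.37 beside -1.18 in mouse PDGF1. The PDGF1 median rests on 10 members. Only 1 member in the CTC of that mouse and 0 in its tumor cell lay above the receptor percentile. The higher ones in mouse 1168 were Adam32 at 4.01, Adam33 at 3.88, Timp4 at 3.81, Mmp16 at 3.33, Adamts5 at 1.89, Mmp15 at 1.88, Adam12 at 1.54 and Adamts19 at 1.03. The lower ones were led by Mmp12 at -6.50, Mmp19 at -3.57, Timp1 at -3.39, Mmp3 at -3.36, Timp3 at -2.42 and Mmp14 at -2.40. Of the 13 lower members 8 were MMPs, and of the 8 higher members 2 were, both of them membrane MMPs. MMPs at 1 FPKM or more numbered 3 in that CTC and 10 in that tumor cell. Mmp12, Mmp3, Mmp13 and Mmp10, among the lower ones, are genes of the block shown first for peaking in that tumor cell. The split describes these 2 libraries only. In mouse 1157, 2 of 15 members were higher in the CTC (13.3%, background 29.0%) and 5 lower (33.3%, background 37.1%). In mouse PDGF1, 3 of 10 were higher (30.0%, background 23.7%) and 4 lower (40.0%, background 59.9%).

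**Figure D5:**
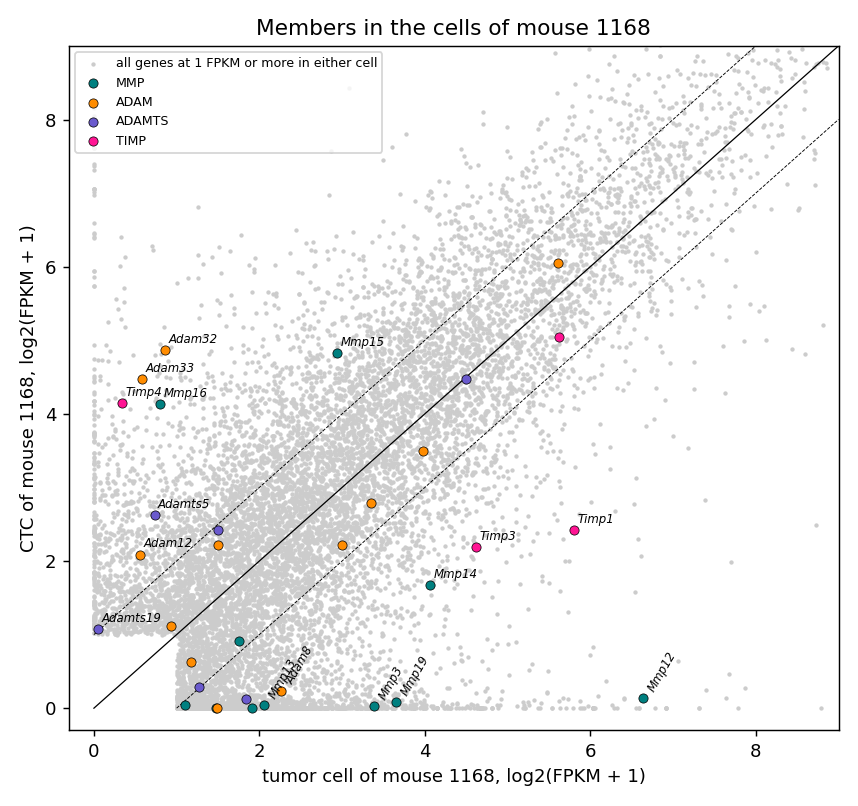
CTC (vertical) against tumor cell (horizontal) of mouse 1168 in log2(FPKM + 1), with all genes at 1 FPKM or more in either cell in grey and members in colour; dashed lines mark a difference of 1, genes beyond the axes are not drawn, and members are named where higher by at least 1 or lower by at least 2. Adam32, Adam33, Timp4 and Mmp16 lie far above the diagonal, and Mmp12, Timp1, Mmp19 and Mmp3 far below it.

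Partners of these enzymes were read from 7 lists, and 0 of the 19 list entries tested passed in either direction over all genes (limma). Among genes of plasminogen activation, which yields a protease that also activates MMPs, 2 of 7 measured in mouse 1168 were at least 1 higher in the CTC and 3 lower. Over all genes measured in that mouse, 22.7% were at least 1 higher and 24.9% lower, which is the background for the counts of each list. The inhibitor Serpine2 was at 518 FPKM in that CTC and 113 in its tumor cell. The activator Plat was at 0.176 in that CTC with 2.07 in its tumor cell, and the urokinase receptor Plaur at 0 and 1.25. Over the 3 mice S100a10 had a difference of 1.22 (SE 4.24), Serpine2 of 0.87 (SE 3.11), Anxa2 of -0.74 (SE 2.23) and Plgrkt of -0.23 (SE 1.89).

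Genes that activate, anchor or clear MMPs differed less in mouse 1168, with 0 of 8 higher and 1 lower by at least 1. That was Cd63, a tetraspanin that binds TIMP1, at 346 FPKM in that CTC with 782 in its tumor cell. Furin, the convertase that removes the propeptide of membrane MMPs and ADAMs, was at 0.399 in that CTC with 1.70 in its tumor cell, and the clearance receptor Lrp1 at 6.25 and 3.43. Over the 3 mice Cd63 had a difference of 2.29 (SE 4.32), Itgav of -0.88 (SE 3.64), Cav1 of -0.80 (SE 1.23) and Lrp1 of -0.32 (SE 1.59).

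Of genes that carry ADAM10 and ADAM17 to the surface, 3 of 10 were higher in the 1168 CTC and 3 lower. The iRhom gene Rhbdf2 was at 29.9, 5.06 and 0.0101 FPKM in CTCs, against 25.1, 0.188 and 0.0950 in tumor cells. The other iRhom gene, Rhbdf1, was at 0.278, 1.78 and 0.0732 FPKM in CTCs, against 4.07, 6.28 and 0.0278 in tumor cells, so the pair lay on opposite sides in mouse 1168. Over the 3 mice their differences were 0.83 for Rhbdf2 (SE 2.06) and -1.10 for Rhbdf1 (SE 1.09), with Frmd8, which steadies the iRhom complex, at -1.06 (SE 1.19) and Pacs2 at -0.78 (SE 0.92).

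Among ADAM substrates in mouse 1168, 3 of 17 were higher in the CTC and 9 lower. The receptor tyrosine kinase Axl was at 1.16 FPKM in that CTC with 31.5 in its tumor cell, the adhesion molecule Vcam1 at 0.778 and 20.5, the chemokine Cxcl16 at 0.0296 and 9.39, and the hyaluronan receptor Cd44 at 8.55 and 74.4. Cd44 lay the other way in mouse PDGF1, at 3.29 FPKM in its CTC and 0.0549 in its tumor cell. Vcam1 did so in mouse 1157, at 3.31 and 0.460. Of this list, Hbegf and Cd44 were tested over the 3 mice, with differences of -0.67 (SE 1.86) and -0.30 (SE 2.01). Of the 4 lecticans, the proteoglycans cut by ADAMTSs, 3 were higher in the CTC of mouse 1168, where Vcan was at 13.0 FPKM with 2.14 in its tumor cell, Bcan at 17.3 and 3.78, and Ncan at 8.58 and 2.52. Acan stayed under 1 FPKM in all 6 cells. In mouse PDGF1 Vcan lay the other way, at 0.00575 FPKM in its CTC and 4.02 in its tumor cell. Of 6 genes measured in that list 3 were higher and 2 lower, among them Adamtsl5 at 0.178 and 14.2 FPKM. Over the 3 mice Ncan had a difference of 0.98 (SE 1.06), Bcan of 0.80 (SE 1.49) and Vcan of 0.01 (SE 1.35).

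Matrix substrates of gelatinases and collagenases were lower in the CTC of mouse 1168 for 10 of 12 measured genes and higher for 0. Spp1, osteopontin, was at 0.182 FPKM in that CTC with 167 in its tumor cell, the proteoglycan Dcn at 0 and 18.8, fibronectin (Fn1) at 0.921 and 13.6, and Col1a2 at 0.0342 and 6.25. Lamb1 was tested over the 3 mice, at -1.45 (SE 0.98). Of other metalloproteases, Bmp1, a procollagen-trimming enzyme, was at 1.34 FPKM in that CTC with 6.72 in its tumor cell, and Ece1 at 5.95 and 4.54, with a difference over the 3 mice of -0.51 (SE 1.67). In that mouse 0 of 2 measured genes of the list were higher by at least 1 and 1 lower. Pericyte and fibroblast genes summed to 2.81 FPKM in mouse 1168's CTC and 84.0 in its tumor cell. Microglia and macrophage genes summed to 228 and 2399 FPKM in the same cells. The part of either kind of cell in these values, and in those of the ADAM substrates, was not tested.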

How the data were processed

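RNA from 3 CTCs and 3 tumor cells was amplified in repeated rounds and sequenced as stranded libraries, per the labels' protocols. The authors deposited FPKM per gene; tools and build, per the submitters' processing notes, include GRCm38, Cufflinks 2.2.1 and STAR 2.4.2a. The handling of reads that match several genes was not given in the sources used here. Names turned into dates (27 rows) or repeated (207 rows) were left out of tests, which left 44804 rows. Differences are CTC minus tumor cell on log2(FPKM + 1), a scale that understates the change of low genes. The test was limma 3.58.1 (R 4.3.3, mean-variance trend, two-sided) over the 4165 genes that reached 1 FPKM in 3 or more cells. The same test was also run on simulated data, whose outcome is not given here. With 3 cells per group, a lack of calls does not show that the groups were alike. Permutation tests used scipy 1.17.1 with numpy 2.4.6; tables were joined in pandas 2.3.3 under Python 3.11.15, and figures drawn with matplotlib 3.10.9.

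Cells of 1 mouse pair by the labels; after removal of group means, same-mouse cells correlated across genes at 0.178, 0.689 and 0.428 in mice 1157, 1168 and PDGF1. Members, lists and tests were chosen with earlier results of these data known. Named were members that entered the test, reached 5 FPKM or more, were among 25 fixed genes or were the 2 highest of a cell, and up to 4 genes per list by smallest p and by largest difference in mouse 1168; members named beyond that were chosen after their values were seen. GENCODE M21 gave positions and gene classes, and RefSeq gave promoters. A planned search of protein sequences was not run. Other pseudocounts, filters, scalings, the mouse as a block and leaving out each cell or mouse were tried as alternatives.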

Additional observations from a re-analysis of the deposited data

How the results depend on the processing

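Besides the mouse as a replicate block, 0 genes were called under each of 16 other settings, which covered pseudocounts, filters, rescaling, quantile normalization and leaving out each cell or mouse; the block called 1, and the block with quantile normalization, added after the data were seen, 0. No member was called under any setting that tested one; at 5 FPKM in at least 3 cells no member was left to test. Apart from the paired fit just named, the pairing changed no call. The mean difference in members at 1 FPKM or more was -2.67 and turned to 2.67 above the receptor percentile; it was -6.33 at 0.5 FPKM, -1.0 at 5 FPKM and -13.7 with rescaling; leaving out 1 cell or 1 mouse gave -7.33 to 3.17. The counts above the receptor percentile, at 0.5 and 5 FPKM and with rescaling were not made over all genes. Of the recomputed differences of the 9 tested members, 128 kept their sign and 25 turned. Adam22 turned to -0.056 with rescaling. Adamts9 turned to -0.33 and -0.065 with pseudocounts of 0.1 and 0.5 and to -0.62 with rescaling. Timp3 turned to 0.35 with quantile normalization, with and without the block. Leaving out 1 cell or mouse, Adam10 ran from -1.62 to 0.59, Adam15 from -1.32 to 2.24, Adam17 from -1.01 to 0.43, Adam22 from -0.18 to 0.79, Adamts9 from -0.72 to 0.51, Timp2 from -1.98 to 1.28 and Timp3 from -1.24 to 0.91. Mmp16, from 0.27 to 2.16, and Adam23, from -1.15 to -0.45, kept their direction under each setting; Adam23 was -2.38 with rescaling. Mice 1157 and PDGF1 hold most members under 1 FPKM, so these data limit any statement on them.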
